A study of Mus musculus with 6 samples.

Results

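The solute carrier genes other than the mitochondrial Slc25 family and 12 amino acid and metal carriers were examined in mouse embryonic stem cells (mESC), either wild type or lacking Mettl5, an adenosine methyltransferase of the small ribosomal subunit's RNA. Members were the rows of the deposited table whose gene symbol has the form of Slc, a family number, the letter a and a second number, leaving out Slc25a genes and the 12 named carriers. The rule found 97 of 9093 genes, and 4 of the 97 carry such a symbol without encoding a carrier. Family branches lettered otherwise, such as Slc35b, are not covered by the rule. Wild-type (WT) cells and cells made Mettl5-deficient by CRISPR/Cas9 editing (KO) shared 1 strain background, a cross in which the females were 129Sv and the males C57BL/6 BVSC. Both were grown without serum in PD0325901 at 1 µM, which inhibits MEK, CHIR99021 at 3 µM, which inhibits GSK3, with LIF (leukemia inhibitory factor) added at 1000 U per ml. Ribosome-protected fragments (footprints, labelled RPF) were sequenced in 2 libraries per genotype and input mRNA in 1 library per genotype. Whether the KO cells are 1 clone is not given in the sources used here, nor is whether libraries of a genotype came from different cultures. The p-values therefore rest on the spread between these libraries alone, and that spread may be technical.

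Solute carriers are membrane proteins that move small molecules across the plasma membrane and the membranes of organelles. They are grouped into numbered families by sequence and commonly share a substrate class within a family. Some are facilitators that let a solute run down its gradient, some couple a solute to sodium or protons, and others exchange one solute for another. Naive stem cells take up glucose and amino acids rapidly and export lactate, so the uptake and export carriers set part of their metabolism. Footprints count ribosomes on an mRNA, and translational efficiency (TE) is the ratio of footprints to input mRNA.

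Footprint libraries held 2060010 to 8675267 reads, and the input libraries held 17912908 (WT) and 15931259 (KO) reads if the lowest deposited value stands for 1 read. Values are given as CPM, each library's read counts divided by its total and put on a common scale. Mettl5 itself had 123 and 127 CPM of footprints in WT and 9.71 and 11.2 CPM in KO, a log2 change of -3.53 ± 0.14 (SE, edgeR adjusted p = 2.23e-130). All 12 listed markers of naive stem cells were measured, with summed footprints of 5118 and 5128 CPM in WT and 5636 and 5577 CPM in KO. Of these 6 rose and 2 fell, the falls being those of Sall4 (-0.32) and Tfcp2l1 (-0.18), while 18.3% of all genes rose and 16% fell. The median log2 change of these markers was 0.22. It was 0.007 relative to the median of all genes on each marker's chromosome. Of 12 listed fibroblast (feeder cell) genes 5 were measured, 4 of which fell and 1 rose, with sums of 3481 and 3493 CPM in WT and 3234 and 3252 CPM in KO. The sum is mostly that of the riser, Fn1, and the 4 that fell summed to 715 and 738 CPM in WT and 160.2 and 151 CPM in KO. The fibroblast gene Col1a1 averaged 296 CPM in the WT libraries and 6.23 CPM in those of KO. Of 12 listed endoderm genes 5 were measured, namely Lamb1, Col4a1, Col4a2, Lama1 and Sparc. All 5 fell, with sums of 3220.4 and 3222 CPM in WT and 1836 and 1894 CPM in KO. The listed genes Gata4, Gata6, Sox7, Sox17, Foxa2, Dab2 and Afp were not measured, so these 5 alone do not identify endoderm cells. The part of the marker genes in the carrier changes below was not tested. Fewer cells of a type cannot be told apart from less RNA per cell in bulk samples.

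Among the 97 members, 11 had more footprints in KO cells, 26 had fewer, and 60 passed the test in neither direction (edgeR quasi-likelihood test, Benjamini-Hochberg adjusted p under 0.05 over all genes). Over all 9093 genes, 18.3% were higher and 16% lower, against 11.3% and 26.8% of members. The median log2 change was -0.05 for the members (-0.13 without the first KO library) and -0.00 for all genes, and members ran from -1.38 (Slc4a5) to 0.64 (Slc12a4). Of the falls 12 were past 1.5-fold and 5 past 2-fold, while 1 rise was past 1.5-fold and 0 past 2-fold. DESeq2 gave 5 rises and 8 falls among members, against 771 rises and 629 falls over all 9093 genes. Leaving out the second KO library left 7 rises and 13 falls in edgeR. The calls that held in every setting with a test were the rises of Slc12a4, Slc2a3, Slc38a7, Slc39a4 and Slc6a6 and the falls of Slc19a2, Slc1a1, Slc20a1, Slc2a1, Slc38a4 and Slc4a5. Each other call was lost with DESeq2, without at least 1 library, or both. Slc12a4, Slc2a3, Slc38a7, Slc6a6 and Slc4a5 lie on chromosomes 6 and 8. The setting without chromosomes 6, 8, 11 and 16 leaves these genes out and so does not test their calls. Their values relative to the chromosome median are given below.

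**Figure D1:**
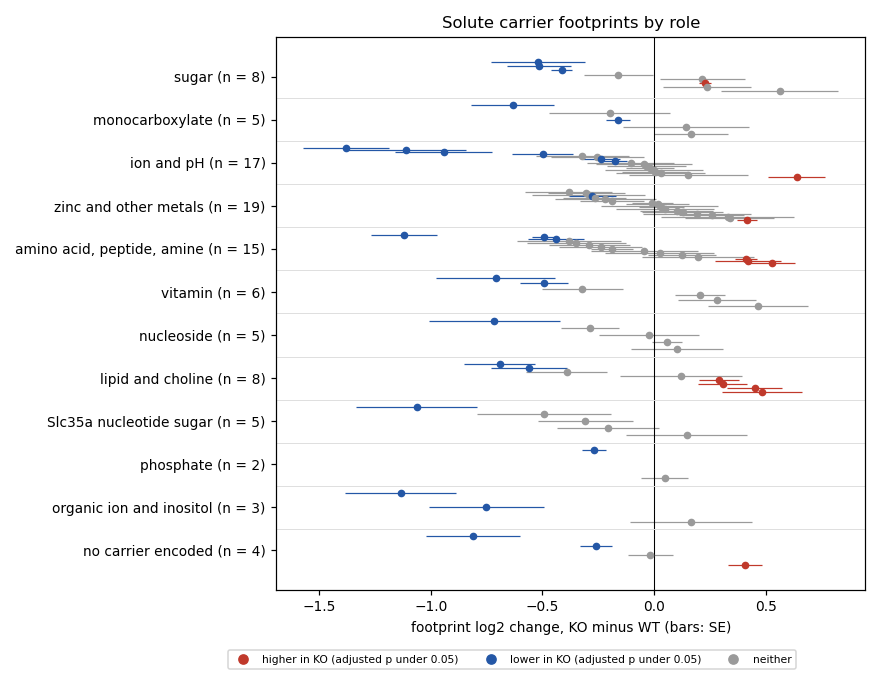
Footprint log2 change (KO minus WT, horizontal axis) of each of the 97 members, in rows by role, with bars for the SE. Red points were higher and blue points lower in KO at an adjusted p under 0.05. The rows for ion and pH carriers hold 6 blue points and 1 red point, whereas 17 of 19 zinc and metal carriers are grey. Of all 9093 genes, 18.3% were higher and 16% lower.

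Calls were more frequent among members with more reads, as they were over all genes. Members had 11 to 28401 footprint reads in a library, and SEs ran from 0.03 for Slc2a3 to 0.30 for Slc35a4. Of the 12 members above 100 CPM in WT, 11 passed the test, the exception being the nucleoside carrier gene Slc29a1, and 54.5% of all genes above that level passed. Of the 41 members below 20 CPM 8 passed, against 20.9% of all genes there. The smallest change that passed was that of Slc16a1, at -0.16, whereas the glucose-6-phosphate carrier gene Slc37a4 did not pass at 0.56 ± 0.26 (edgeR adjusted p = 0.0839) with 6.24 and 7.26 CPM in WT and 8.74 and 10.9 CPM in KO.

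The plasma membrane glucose facilitators moved in opposite directions. Slc2a1, which encodes the widespread facilitator GLUT1 (ENSMUSG00000028645.11, chromosome 4, 119108745 to 119137330 in mm10), stood at 454 and 470 CPM in WT footprints and 336 and 347 CPM in KO. It fell by 0.41 ± 0.05 on the log2 scale (1.33-fold, edgeR adjusted p = 3.17e-17), with every KO library below every WT library. Slc2a3, which encodes the high-affinity facilitator GLUT3 (ENSMUSG00000003153.10, chromosome 6, 122727809 to 122802363), had 3386 and 3274 CPM in WT and 3719 and 3936 CPM in KO. It rose by 0.23 ± 0.03 (1.17-fold, edgeR adjusted p = 4.59e-16), again without overlap. The libraries of the genotypes do not overlap, in either direction, for 64.6% of all genes. The rise of Slc2a3 was smaller than the median of all genes on chromosome 6 (0.31), so relative to that median its value turned to -0.086. Slc2a3 alone held 38.4% of the summed member CPM in WT and 43.4% in KO. Summed over the members without Slc2a3, footprints were 5294 and 5372 CPM in WT and 4967 and 5029 CPM in KO.

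Of the other sugar carriers, Slc2a8, an intracellular hexose carrier gene, and Slc45a4, of a proton-linked sugar carrier family, both fell, by 0.52 each. Slc45a4 had 55.0 and 40.9 CPM in WT and 30.6 and 32.3 CPM in KO (edgeR adjusted p = 0.00147), a call lost with DESeq2 and without the first WT library, and its value was -0.77 without the second. Slc2a8 had 19.3 and 19.6 CPM in WT and 13.6 and 13.2 CPM in KO (edgeR adjusted p = 0.0413), a call lost without any 1 of the 4 libraries, with DESeq2 and with the replicate number as a block (edgeR adjusted p = 0.0501). Slc37a1, Slc37a3, Slc37a4 and Slc50a1 did not pass, at log2 changes of -0.16 to 0.56.

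Lactate and pyruvate cross the membrane through the proton-linked Slc16 carriers. Slc16a1 (MCT1, chromosome 3, 104638664 to 104658462) had 304 and 311 CPM of footprints in WT and 265 and 276 CPM in KO, a fall of 0.16 ± 0.05 (edgeR adjusted p = 0.00888). Slc16a3 (MCT4), the carrier known for lactate export from glycolytic cells, had 26.1 and 27.2 CPM in WT and 17.5 and 16.7 CPM in KO and fell by 0.63 ± 0.19 (edgeR adjusted p = 0.00331). All KO values lay below all WT values for both genes, though the genotypes separate in 1 direction or the other for 64.6% of all genes. Both calls were lost with DESeq2 and without the second WT library. That of Slc16a1 was also lost without the first KO library and that of Slc16a3 without the second KO library. The changes of Slc16a6, Slc16a9 and Slc16a13 were 0.16, 0.14 and -0.20 and did not pass.

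The promoters of Slc2a1 and Slc16a3 are shown as examples picked by hand. Both genes are among the 22 members that fell in footprints and had lower input mRNA in KO. Each is the 250 bases before the listed start, from RefSeq (GRCm38.p6, plus strand), written 5′ to 3′, and capitals mark ACGTG, the core of hypoxia response elements and of some E-boxes, searched on both strands. For Slc16a3 that start lies inside the listed extent of the gene, which begins at 120948484. The Slc2a1 window is chr4:119108495-119108744 and the Slc16a3 window is chr11:120948817-120949066.
Slc2a1: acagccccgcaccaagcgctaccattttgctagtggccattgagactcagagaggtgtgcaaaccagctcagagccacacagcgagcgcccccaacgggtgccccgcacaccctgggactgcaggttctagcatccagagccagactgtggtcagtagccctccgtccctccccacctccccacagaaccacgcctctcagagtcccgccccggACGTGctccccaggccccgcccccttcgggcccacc
Slc16a3: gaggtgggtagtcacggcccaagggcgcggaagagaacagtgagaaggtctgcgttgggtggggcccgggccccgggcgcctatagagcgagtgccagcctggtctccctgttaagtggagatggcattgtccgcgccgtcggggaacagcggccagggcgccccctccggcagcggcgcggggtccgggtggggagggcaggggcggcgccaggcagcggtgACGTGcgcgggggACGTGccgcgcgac
ACGTG occurred once before Slc2a1, with its first letter 36 bases before the start, and at 27 and 14 bases before the start of Slc16a3. Of 77 members with a listed promoter, 20 (26.0%) held ACGTG, against 18.5% of all 27025 genes with a listed promoter, measured here or not. It was in 7 of 22 members that fell, 2 of 8 that rose and 11 of 47 that passed in neither direction. Other motifs were searched as well, with N for any base. The metal response core TGCACNC was in 20.8% of these members and 11.8% of genes. The amino acid response core TGATGNAA was in 2.60% and 3.91%. These differences were not tested. A match describes the letters only.

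Ion carriers and pH regulators, which set chloride, bicarbonate, proton and calcium levels, had 6 of 17 members lower, 1 higher and 10 in neither direction. The shares over all genes were 16% lower and 18.3% higher, and the difference was not tested. The largest fall of any member was that of Slc4a5, a sodium bicarbonate cotransporter gene (ENSMUSG00000068323.12, chromosome 6, 83207580 to 83304945). It had 34.3 and 32.3 CPM in WT and 13.1 and 12.1 CPM in KO, a 2.60-fold fall (log2 change of -1.38 ± 0.19, edgeR adjusted p = 2.06e-11). Slc24a5, a potassium-dependent sodium/calcium exchanger gene known from pigment cells, had 13.3 and 13.7 CPM in WT and 9.22 and 4.32 CPM in KO (-1.11 ± 0.27, edgeR adjusted p = 0.000228). Its KO libraries differ from each other, and the call was lost without the second KO library, where the change was -0.54, and with DESeq2 (adjusted p up to 0.319). Slc4a11, a proton-conducting member of the Slc4 family, fell by 0.50 (49.9 and 48.8 CPM in WT, 36.9 and 32.5 CPM in KO), lost with DESeq2 and without the second KO library.

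The cation-chloride cotransporters of the Slc12 family did not move together. Slc12a8 fell by 0.94 ± 0.22, from 18.7 and 23.7 CPM to 13.6 and 9.79 CPM (edgeR adjusted p = 8.83e-05), which was lost with DESeq2 and without the second KO library. The sodium-potassium-chloride importer gene Slc12a2 (NKCC1) fell by 0.24 ± 0.08 and the potassium-chloride exporter gene Slc12a7 (KCC4) by 0.18 ± 0.05. Slc12a7 had 309 and 304 CPM in WT and 257 and 273 CPM in KO. The Slc12a2 and Slc12a7 calls were lost with DESeq2, that of Slc12a2 also without the first WT or the second KO library and that of Slc12a7 without the first KO library. Slc12a4 (KCC1), another potassium-chloride exporter gene (ENSMUSG00000017765.17, chromosome 8, 105943590 to 105966149), had 31.5 and 38.4 CPM in WT and 56.3 and 54.4 CPM in KO. It rose by 0.64 ± 0.13 (1.55-fold, edgeR adjusted p = 7.08e-06), the highest rise of any member. Slc12a9 (-0.25) did not pass, nor did the sodium-proton exchanger gene Slc9a8 (0.03).

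**Figure D2:**
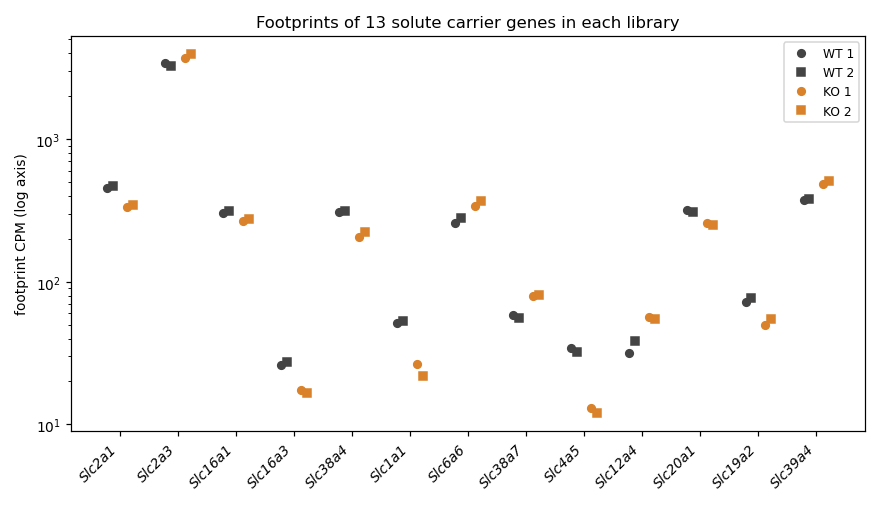
Footprint CPM (vertical log axis) of 13 members in the 2 WT libraries (dark grey) and the 2 KO libraries (orange), circles for the first and squares for the second library of a genotype. WT and KO points separate for all 13, by the widest factor for Slc4a5 (2.60-fold) and by 1.12-fold and 1.17-fold for Slc16a1 and Slc2a3. The plotted genes were chosen among called ones, and 64.6% of all genes separate in this way.

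Zinc and other metal carriers had 1 of 19 members higher, 1 lower and 17 in neither direction, at a median of 0.02. The shares over all genes were 18.3% higher and 16% lower, and the difference was not tested. The Slc30 carriers move zinc out of the cytosol and the Slc39 carriers bring it in. Slc39a4 (ZIP4), the importer best known from zinc uptake in the intestine (ENSMUSG00000063354.6, chromosome 15, 76612383 to 76618506), had 372 and 381 CPM of footprints in WT and 482 and 505 CPM in KO. It rose by 0.41 ± 0.04 (1.33-fold, edgeR adjusted p = 7.25e-19). The libraries of the genotypes did not overlap, which holds for 64.6% of all genes. Slc39a7, which releases zinc from the endoplasmic reticulum, had 77.7 and 75.6 CPM in WT and 63.6 and 61.0 CPM in KO and fell by 0.28 (edgeR adjusted p = 0.0255). That call was lost without any 1 of the 4 libraries and with DESeq2.

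None of the 6 Slc30 members passed in footprints at the adjusted threshold in edgeR (1 had an unadjusted p under 0.05, and DESeq2 called 0), with log2 changes of -0.38 (Slc30a2) to 0.26 (Slc30a1). Slc30a1 (ZnT1), the plasma membrane zinc exporter gene, had 31.8 and 34.0 CPM in WT and 35.9 and 41.2 CPM in KO (0.26 ± 0.14, edgeR adjusted p = 0.159). The copper importer gene Slc31a1 had 92.5 and 88.3 CPM in WT and 86.9 and 88.4 CPM in KO, which overlap. The heme carrier gene Slc48a1 (0.34), the magnesium carrier genes Slc41a1 (-0.30) and Slc41a3 (0.19) and Slc31a2 (0.33) did not pass. Among zinc-binding metallothioneins, Mt2 rose from 542 to 929 CPM on average (0.78 ± 0.04) and Mt1 from 3311 to 3439 CPM (0.08 ± 0.03), and both lie on chromosome 8, relative to whose median Mt2 stood at 0.39 and Mt1 at -0.31.

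Carriers of amino acids, peptides and amines had 3 of 15 members higher and 3 lower (20% each), near the 18.3% and 16% of all genes. Slc1a1 (EAAT3), a glutamate and aspartate importer gene (ENSMUSG00000024935.10, chromosome 19, 28835135 to 28913960), had 51.4 and 53.0 CPM in WT and 26.7 and 21.9 CPM in KO. It fell 2.17-fold (log2 change of -1.12 ± 0.15, edgeR adjusted p = 7.88e-13). Slc38a4, an imprinted gene for a neutral amino acid carrier (chromosome 15, 96994816 to 97055956), had 309.8 and 311 CPM in WT and 206 and 224 CPM in KO, a fall of 0.49 ± 0.06 (edgeR adjusted p = 2.28e-17). The creatine carrier gene Slc6a8 fell by 0.44 ± 0.12, with 54.5 and 57.5 CPM in WT and 40.8 and 41.2 CPM in KO. KO values lay below WT values for all 3, though the genotypes separate in 1 direction or the other for 64.6% of all genes. The Slc6a8 call (edgeR adjusted p = 0.00233) was lost with DESeq2 and without the second WT library.

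The rises in that group were those of Slc6a6, Slc38a7 and Slc15a1. Slc6a6, which imports taurine (chromosome 6, 91684048 to 91759063), had 259.6 and 279 CPM in WT and 337 and 369 CPM in KO and rose by 0.41 ± 0.05 (edgeR adjusted p = 1.37e-14). Slc38a7, which exports glutamine from lysosomes (chromosome 8, 95835920 to 95853577), had 58.4 and 55.8 CPM in WT and 79.6 and 80.9 CPM in KO and rose by 0.53 ± 0.10 (edgeR adjusted p = 3.74e-06). The di- and tripeptide carrier gene Slc15a1 rose by 0.42 ± 0.15 (edgeR adjusted p = 0.0176), a call lost without the second WT library (0.21), without the second KO library (0.27) and with DESeq2. The 9 others, among them the glycine carrier gene Slc6a9 (-0.04) and the lysosomal genes Slc36a1 (-0.35) and Slc17a5 (0.12), did not pass. The 12 carriers set apart by the rule, most of them for amino acids, had 11 measured genes. Of these 6 rose and 3 fell, against 18.3% and 16% of all genes. Their median was 0.17, or -0.03 relative to the chromosome medians. This list of set-apart carriers was chosen with earlier results known and its difference from the members was not tested.

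Vitamin carriers had 2 of 6 members lower and 0 higher, against 16% and 18.3% of all genes. Slc19a2, which imports thiamine (chromosome 1, 164249046 to 164265385), had 72.1 and 76.8 CPM in WT and 49.5 and 54.4 CPM in KO and fell by 0.49 ± 0.11 (edgeR adjusted p = 4.36e-05). The proton-coupled folate importer gene Slc46a1 had 11.9 and 11.2 CPM in WT and 6.31 and 7.20 CPM in KO and fell by 0.71 ± 0.27 (edgeR adjusted p = 0.0263), which was lost with DESeq2 and in 3 of 4 fits that left out a library. The reduced folate carrier gene Slc19a1 did not pass at 0.46 ± 0.22, nor did Slc52a2 for riboflavin (0.28), Slc23a2 for ascorbate (0.20) and the multivitamin carrier gene Slc5a6 (-0.32).

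Of 5 nucleoside and related carriers, Slc29a4, a monoamine carrier gene, fell by 0.71 ± 0.29 (edgeR adjusted p = 0.0439). Its first WT library (6.81 CPM) and first KO library (6.80 CPM) were close, and the call was lost with the replicate number as a block and in 3 of 4 fits without 1 library. The change was -0.30 without the second WT library and -0.40 without the second KO library. The equilibrative nucleoside carrier gene Slc29a1 had 160.0 and 159.6 CPM in WT and 161 and 165 CPM in KO (0.06 ± 0.07). The phosphate importer gene Slc20a1 had 316 and 306 CPM in WT and 258 and 250.2 CPM in KO and fell by 0.27 ± 0.05 (edgeR adjusted p = 5.5e-06), while Slc20a2 stood at 0.05 ± 0.11.

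Genes grouped as lipid and choline carriers had 4 of 8 members higher and 2 lower, against 18.3% and 16% of all genes. Among the higher genes, Slc27a1 and Slc10a7 lie on chromosome 8 and stood at 0.06 and 0.09 relative to its median. The choline carrier genes Slc44a1 (82.3 and 78.8 CPM in WT, 100.5 and 93.6 CPM in KO) and Slc44a2 (56.2 and 54.5 against 63.1 and 69.7 CPM) rose by 0.29 and 0.31. Both calls were lost with DESeq2 and without the second WT library, that of Slc44a1 also without the first KO library and that of Slc44a2 also without the second. The fatty acid carrier gene Slc27a1 had 38.3 and 44.1 CPM in WT and 55.3 and 57.6 CPM in KO and rose by 0.45 ± 0.12 (lost with DESeq2 and without the second KO library), whereas its relative Slc27a3, an acyl-CoA synthetase, fell by 0.69 ± 0.16, from 35.5 and 40.5 CPM to 27.2 and 21.3 CPM (edgeR adjusted p = 0.000101, lost without the second KO library). Slc10a7 of the bile acid carrier family had 19.0 and 20.1 CPM in WT and 26.7 and 27.4 CPM in KO and rose by 0.48 ± 0.18, a call lost with DESeq2 and without any 1 of the 4 libraries. Slc33a1, which brings acetyl-CoA into the endoplasmic reticulum, fell by 0.56 ± 0.17 with KO libraries at 13.6 and 25.3 CPM, and its call was lost without the first of them and with DESeq2. Its value was -1.18 without the second of them and -0.27 without the first.

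In the Slc35a branch, which supplies nucleotide sugars to the Golgi, Slc35a5 had 12.8 and 13.3 CPM in WT and 6.80 and 5.76 CPM in KO and fell by 1.06 ± 0.27 (edgeR adjusted p = 0.000482). That call was lost without the second KO library and with DESeq2. The other 4 members, Slc35a1 to Slc35a4, ran from -0.49 to 0.15 and did not pass. Among organic ion carriers, the imprinted gene Slc22a18 had 17.9 and 16.02 CPM in WT and 10.2 and 5.76 CPM in KO and fell by 1.14 ± 0.25 (edgeR adjusted p = 4.05e-05, lost without the second KO library, at a log2 change of -0.69 and an edgeR adjusted p of 0.144). The citrate importer gene Slc13a5 had 11.1 and 13.5 CPM in WT and 7.28 and 7.49 CPM in KO and fell by 0.75 ± 0.26 (lost with DESeq2 and in 3 of 4 fits without 1 library), and Slc5a3, for myo-inositol, stood at 0.16 ± 0.27.

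The rows that encode no carrier were Slc9a3r1, Slc9a3r2, Slc4a1ap and Slc7a6os. The first and second encode scaffold proteins that bind carriers, and both fell, by 0.26 ± 0.07 and 0.81 ± 0.21. Slc9a3r2 had 22.1 and 21.8 CPM in WT and 11.2 and 12.96 CPM in KO. Slc7a6os, named for the opposite strand at Slc7a6, rose by 0.40 ± 0.08 from 95.3 and 122 CPM to 154.9 and 142 CPM. Its value was 0.65 without the second WT library and 0.29 without the first. These 3 calls were lost with DESeq2. Without these 4 rows, 10 of 93 members rose (10.8%) and 24 fell (25.8%), against 18.3% and 16% of all genes.

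Where a member lies on the genome went with its direction. On chromosomes 6 and 8, where the medians of all genes were 0.31 and 0.39, 7 of 11 members rose and 1 fell, and 58.7% of all genes there rose. The 7 were Slc2a3 and Slc6a6 on chromosome 6 and Slc10a7, Slc12a4, Slc27a1, Slc38a7 and Slc7a6os on chromosome 8. On chromosomes 11 and 16, with medians of -0.19 and -0.25, 6 of 14 members fell and 0 rose, against 37.9% and 4.73% of all genes there. On the remaining chromosomes 19 of 72 members fell (26.4%) and 4 rose (5.56%), against 14.4% and 15.0% of 7060 genes. What moves whole chromosomes was not tested.

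**Figure D3:**
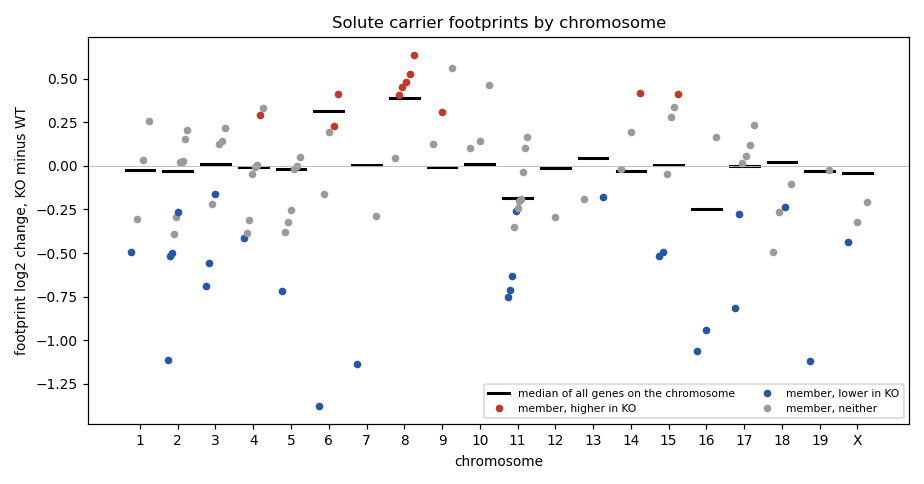
Footprint log2 change of the members (vertical axis) by chromosome, with black lines at the median of all measured genes of each chromosome. The red points on chromosomes 6 and 8 sit around black lines at 0.31 and 0.39, while Slc4a5 on chromosome 6 lies at -1.38.

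Values relative to the chromosome median place the members differently. Slc4a5 lay 1.69 below its chromosome (-1.69), further than its plain change, and Slc1a1 (-1.09) and Slc22a18 (-1.14) were little altered. Slc12a4 stood at 0.25, Slc38a7 at 0.14, Slc6a6 at 0.10, Slc10a7 at 0.09, Slc27a1 at 0.06 and Slc7a6os at 0.01. The 4 rises on other chromosomes were those of Slc39a4, Slc15a1, Slc44a1 and Slc44a2, at 0.41, 0.45, 0.29 and 0.31 above their chromosome medians. Among falls on chromosome 11, Slc16a3 stood at -0.45 and Slc9a3r1 at -0.07.

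Input mRNA was compared between single libraries, so its differences have no replicate check, and the 95% intervals cover counting error only. The median log2 input ratio, computed after adding 1 CPM, was -0.03 for the members and 0.05 for all genes. Of the 26 members with fewer footprints 22 had a ratio below 0, and all 11 with more footprints had a ratio above 0. Of those 11, 7 lie on chromosomes 6 and 8, where the input medians of all genes were 0.35 and 0.31. The same counts were not made over all genes, so they do not set the members apart. WT input of Slc4a5 was 47.1 CPM and KO input 19.96 CPM, which is a ratio of -1.20 (-1.38 to -1.02), close to its footprint change. Input of Slc1a1 was 37.2 and 17.6 CPM (-1.04, -1.23 to -0.84) and that of Slc2a1 428 and 275 CPM (-0.64, -0.69 to -0.58). The falls with an input ratio above 0 were those of Slc12a2, Slc16a1, Slc20a1 and Slc35a5. Across the 97 members, footprint and input changes correlated at 0.674 (Pearson) and 0.650 (Spearman), against 0.523 and 0.464 over all genes. Genes share their libraries and are not independent replicates.

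**Figure D4:**
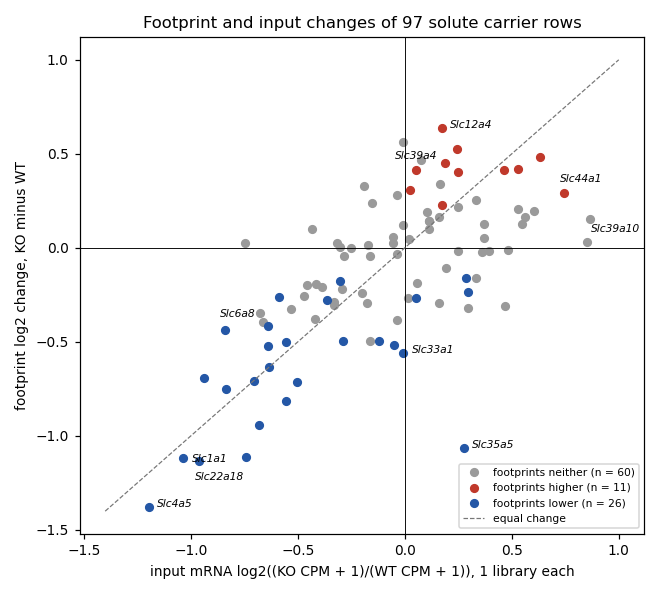
Footprint log2 change (vertical axis) against the input log2 ratio (horizontal axis) of the 97 members, with a dashed line of equal change. Slc4a5, Slc1a1 and Slc22a18 lie near the dashed line at the lower left, whereas Slc35a5 has fewer footprints at a higher input and Slc39a10 more input at level footprints.

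TE was lower in KO for 8 members and higher for 1 (limma on log2(CPM + 1), interaction of genotype and library type, Benjamini-Hochberg adjusted p under 0.05), against 12.8% lower and 4.88% higher of all genes. In the fit the single input libraries are assumed to vary like footprint libraries, and when input libraries were given 0.2 (log2) of extra spread limma called 0 members (2 lower and 0 higher at an unadjusted p under 0.05). The p-values of the authors' deposited table, adjusted by Benjamini-Hochberg, also called 0 members (10 higher and 14 lower at an unadjusted p under 0.05).

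**Figure D5:**
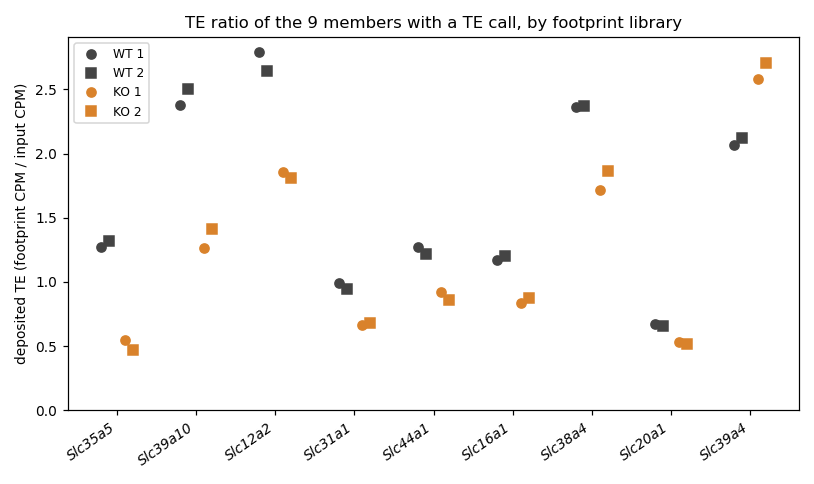
TE ratio of the authors' deposited table (footprint CPM over input CPM, vertical axis from 0) for the 9 members with a TE call, in WT (dark grey) and KO (orange) footprint libraries. A genotype has 1 input library for both its ratios, so the spread between points holds no input error. Slc39a4 is the member with KO points above WT points.

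Of the members with lower TE, Slc39a10 and Slc31a1 passed the footprint test in neither direction and Slc44a1 rose in it, and all 3 had a higher input value in KO. Slc39a10, a zinc importer gene, had 70.1 and 73.9 CPM of footprints in WT and 68.0 and 76.3 CPM in KO, with input at 29.5 and 53.9 CPM, a TE change of -0.85 ± 0.19 (limma adjusted p = 0.00271). The TE change of Slc31a1 was -0.52 ± 0.14 (limma adjusted p = 0.0134), with input at 93.3 and 131 CPM. Slc44a1 had a TE change of -0.48 ± 0.15 (limma adjusted p = 0.0329), which was lost with median centring and without either WT library. Mean TE of Slc39a10 was 2.44 (WT) and 1.34 (KO) in the authors' deposited table.

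The other 5 had fewer footprints as well. Slc16a1 had a TE change of -0.47 ± 0.09 (limma adjusted p = 0.000475) with WT input at 259 CPM and KO input at 316 CPM. Slc35a5 had the lowest TE value of any member, -1.22 ± 0.39 (limma adjusted p = 0.0329), from input of 10.05 and 12.4 CPM, and its call was lost without either WT library. Slc12a2 (-0.56), Slc38a4 (-0.40) and Slc20a1 (-0.34) followed, of which the Slc12a2 call was lost without the first WT library (as was that of Slc31a1). The rise was that of Slc39a4, at 0.34 ± 0.08 (limma adjusted p = 0.00671), with input at 180 and 186 CPM and deposited TE ratios of 2.07 and 2.12 in WT and 2.58 and 2.71 in KO in the authors' deposited table. Slc4a5 (-0.14), Slc1a1 (-0.04) and Slc2a3 (0.03) passed in neither direction in TE, and Slc2a1 stood at 0.20 ± 0.08 (limma adjusted p = 0.0824).

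Proteins that work with carriers were listed separately, with earlier results of these data known. Of 18 listed partners and regulators 17 were measured, of which 6 rose and 2 fell, against 18.3% and 16% of all genes. Their median was 0.08, or 0.05 relative to the chromosome medians. Basigin (Bsg), the chaperone of Slc16a1 and Slc16a3, rose from 614 to 669 CPM on average (0.14 ± 0.04). Txnip, which promotes removal of GLUT1 from the cell surface, rose from 247 to 339 CPM (0.49 ± 0.05). Wnk1, a kinase that regulates Slc12 carriers, rose from 320.3 to 408 CPM (0.38 ± 0.05), or by 0.07 relative to the median of its chromosome 6. The folate receptor gene Folr1 fell from 72.1 to 34.3 CPM (-1.06 ± 0.12), in the same direction as Slc46a1.

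Of 23 measured enzymes that use carried substrates, 6 rose and 2 fell, against 18.3% and 16% of all genes. Their median was 0.09, or 0.05 relative to the chromosome medians. The choline kinase genes went opposite ways, Chka at -0.85 ± 0.16 and Chkb at 0.93 ± 0.21. The hexokinase gene Hk1 fell by 0.14, and Hk2 rose by 0.12 but stood at -0.20 relative to the median of its chromosome 6. The lactate dehydrogenase gene Ldhb rose by 0.38, or 0.07 relative to the median of chromosome 6. None of the 9 listed enzymes that make nucleotide sugars or the sulfate donor passed in edgeR (0 at an unadjusted p under 0.05, and 0 with DESeq2), the values running from -0.10 (Papss1) to 0.29 (Tsta3).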

How the data were processed

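Footprint counts and their CPM, input CPM, TE ratios, a log2 TE fold and an unadjusted p-value were deposited by the authors in 1 table of 9093 genes. Footprint counts were deposited raw. The deposited CPM equals the count divided by the library total before the authors' gene filter. Input was deposited by the authors as CPM only, and 100% of input values were whole multiples of the lowest (tolerance 0.01). The TE ratio is footprint CPM over input CPM, per the file headers. The log2 TE fold and the p-value come from the authors' deposited table. Bowtie and mm10 are named per the submitters' processing notes, and neither read counter nor filter is given in the sources used here. A further 2 per-sample input columns matched no sample here and were not used.

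Every gene had at least 11 footprint reads in each library. Footprints were tested with edgeR 4.0.16 (TMM, quasi-likelihood, library totals behind the CPM), 2 against 2 libraries. TE was tested with limma 3.58.1 (trend) on log2(CPM + 1), which understates changes of low genes. Filters removed 0 genes. Each gene's fit left 2 residual degrees of freedom. The fits were tested on simulated data with a common dispersion for all genes and for both library types. That simulation cannot check spread that differs between genes or the unreplicated input. Alternatives included DESeq2 1.42.0, other scalings, pseudocounts and filters, a replicate block and leaving out each library. Input intervals use a normal approximation to counting error at 95%.

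By rule, full values went to Mettl5, the 8 largest called rises and falls in footprints, up to 3 called genes per role, the 6 largest called rises and falls in TE and counts of 5 or fewer. Levels were not ranked between genes, since no coding length was used. Members, roles and lists were chosen with earlier results of these data known, and Slc7a6os was moved to the rows without a carrier after the table was seen. Positions came from the RefSeq table of GRCm38.p6, which matched 9054 genes and all 97 members. The chi-square of replicate counts, divided by its degrees of freedom, was 1.44 (WT) and 1.24 (KO), above sampling noise. Some genes that enter the counts are not reported here by name.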

Additional observations from a re-analysis of the deposited data

How the results depend on the processing

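Footprint counts of members (11 higher, 26 lower) became 5 and 8 with DESeq2. Without chromosomes 6, 8, 11 and 16, 4 of 72 members were higher and 18 lower, against 1018 and 985 of 7099 genes. Leaving out 1 library gave 7 to 10 higher and 13 to 23 lower, the lowest of both without the second KO library. RLE scaling gave 11 and 26. Library sizes from the deposited counts and no filter gave 11 and 26 as well, with the same log2 changes as the main fit. The main filter had removed 0 genes, so the setting without it could not differ. A mean of at least 50 counts gave 11 and 22 of 78 members, with a median log2 change of -0.15. Relative to the chromosome median, the change of Slc2a3 reversed to -0.086, by construction. TE counts (1 higher, 8 lower) became 4 and 7 with median centring, which subtracts each library's median. The split of all genes turned from 444 higher and 1165 lower to 756 and 883. Leaving out 1 library gave 1 to 5 higher and 4 to 14 lower, the most without the second KO library. An added input spread gave 0 and 0 in limma. The authors' p-values adjusted by Benjamini-Hochberg gave 0 and 0 (10 higher and 14 lower unadjusted). Over all genes DESeq2 called 771 higher and 629 lower in footprints. The replicate numbers are not known to pair the libraries (correlation of deviations -0.03), and with the replicate block 11 members were higher and 24 lower in footprints, and 1 and 9 in TE. The count model of TE on recovered input reads was not run, because the input is deposited as CPM. Calls were fewer below 20 CPM, and single input libraries limit every TE statement. Causes of these differences were not tested.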
